A study of Mus musculus with 21 samples.

Results

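The calcineurin-NFAT genes were followed in mouse quadriceps muscle after exhaustive running. They are 10 genes chosen by symbol from the 53738 gene symbols of the table, and all 10 passed the filter on low values that left 11819 genes for testing. They comprised the calcineurin catalytic subunits Ppp3ca and Ppp3cb, the regulatory subunit Ppp3r1, the calcineurin regulators Rcan1 and Rcan2, the transcription factors Nfatc1, Nfatc2 and Nfatc3, and the calsarcins Myoz1 and Myoz2. RNA of the whole tissue was sequenced in 21 libraries, 3 in each of 7 groups. All mice were adult wild-type C57/Bl6 males. Sedentary mice neither trained nor ran. Untrained mice, once acclimatized to a treadmill, ran an acute bout on it until exhausted and were killed 0 h, 6 h or 72 h later. Trained mice did the same after 12 weeks with a voluntary running wheel. Since the bout ended at exhaustion, its length was not fixed, and the authors report better performance in trained mice. Mice that trained but did not run on the treadmill were not among the groups, so in trained muscle the effects of the wheel and of the bout cannot be told apart against sedentary muscle. The labels number the libraries without saying that each came from its own animal, so p-values measure the spread between libraries.

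Calcineurin is a phosphatase that calcium and calmodulin switch on in active muscle. It removes phosphates from NFAT proteins, which then enter the nucleus and bind DNA at sites with the core GGAAA, and in skeletal muscle this pathway is known for its role in slow, oxidative fibres and in the sensing of nerve activity. Regulators of calcineurin (RCAN proteins) bind the enzyme and can inhibit it, and Rcan1 is itself a classical NFAT target, which makes its transcript a common readout of the pathway. Calsarcins tether calcineurin to the Z-disc, the structure that anchors the thin filaments of the sarcomere, and Myoz1 is the calsarcin of fast fibres whereas Myoz2 is that of slow fibres and heart.

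Rcan1 (chromosome 16, 92188840 to 92267755, minus strand, GRCm39) is the member on which the results turn, and its transcripts begin at alternative starts. RefSeq gives promoter windows around 2 of them, 66091 bases apart, each from 250 bases before to 50 bases after the start. Both windows matched the minus strand of chromosome 16 of GRCm39 exactly and in a single place, and other chromosomes were not searched. They are shown because the downstream start gives the short isoform that is known to respond to calcineurin and NFAT, whereas the upstream start gives the long isoform. Capitals mark GGAAA or its reverse complement TTTCC, which cannot overlap each other. The upstream window is chr16:92263008-92263307 and the downstream window is chr16:92196917-92197216, both printed 5′ to 3′ on the minus strand.
Rcan1 upstream start: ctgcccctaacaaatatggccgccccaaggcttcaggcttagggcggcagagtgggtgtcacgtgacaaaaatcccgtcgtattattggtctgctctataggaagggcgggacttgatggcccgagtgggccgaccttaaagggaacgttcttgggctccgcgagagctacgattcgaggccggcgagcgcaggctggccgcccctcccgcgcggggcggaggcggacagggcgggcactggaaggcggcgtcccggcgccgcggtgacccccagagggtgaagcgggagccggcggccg
Rcan1 downstream start: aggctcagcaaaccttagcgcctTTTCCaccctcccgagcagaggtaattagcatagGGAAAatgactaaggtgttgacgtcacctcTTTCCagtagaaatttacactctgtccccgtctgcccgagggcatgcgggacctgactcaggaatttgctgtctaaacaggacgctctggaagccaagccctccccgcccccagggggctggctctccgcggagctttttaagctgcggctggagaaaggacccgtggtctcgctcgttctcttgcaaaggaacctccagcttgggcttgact
The upstream window held 0 copies of the core and had a GC content of 67.7%. The downstream window held 3 copies, all before the start, and had a GC content of 56.3%. Of all 32851 RefSeq windows of 300 bases, 61.3% held at least 1 copy on either strand and 9.415% held at least 3. Among the 12 windows of the 7 members in the table, the Ppp3cb window held 4 copies and a window of Nfatc2 also held 3, while the single Ppp3r1 window held 0. A match of these 5 letters is a description of the sequence, not a binding site. The deposited values sum all transcripts of a gene, so the starts of Rcan1 were not told apart, although 9 of the 14 annotated Rcan1 transcripts begin within 200 bases of the downstream start.

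The values are in TPM, a unit of transcript abundance that is set per transcript length and scaled to the same total in each library, so levels can be compared between genes but sequencing depth is unknown. Differences are given as log2 fold changes of TPM + 0.5, with their standard error (SE), and were tested with limma over all 11819 genes. A gene was called changed where the adjusted p was under 0.05 and the level differed at least 1.5-fold, upward or downward. The first library of the untrained 0 h group and the first of the trained 0 h group hold identical values, so 20 libraries are distinct. Log2 fold changes of named genes that involve 0 h muscle were recomputed without this shared library. Counts of genes at an unadjusted p below 0.05 include it, except between trained and untrained muscle at 0 h. The share of all tested genes at an unadjusted p below 0.05 is not given, so these counts cannot be read against it. The median log2 fold change of all tested genes was not 0 in every comparison: it was 0.10 in untrained and 0.13 in trained muscle at 0 h against sedentary muscle, and -0.15 in trained muscle between 0 h and 6 h. Markers of muscle fibres (7 genes) summed to between 50471 and 67754 TPM, as the tissue label would have it, whereas 8 lymphocyte markers summed to at most 1.55 TPM and 3 cardiac markers to at most 1.41 TPM. In bulk tissue, fewer cells of a type and less RNA per cell cannot be told apart.

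Catalytic and regulatory subunits were present at moderate and steady levels. Ppp3cb, the beta isoform of the catalytic subunit, ranged from 51.8 to 70.6 TPM over the 20 distinct libraries with a median of 61.2 TPM. Ppp3ca, the alpha isoform, ranged from 30.3 to 42.4 TPM, and Ppp3r1, the calcium-binding regulatory subunit, from 28.6 to 44.2 TPM. Within a library the level of Ppp3cb was always above that of Ppp3ca, by a ratio of 1.60 to 1.85. Ppp3r1 reached 0.316 to 0.400 of the summed level of Ppp3ca and Ppp3cb. Against sedentary muscle limma passed 0 of the 18 tests of the 3 subunits by the adjusted p, and 2, those of Ppp3cb and Ppp3r1 in trained muscle at 0 h, had an unadjusted p below 0.05.

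Ppp3r1 and Ppp3cb were slightly lower at 6 h than at 0 h in trained muscle. Ppp3r1 was at 44.2, 38.1 and 42.7 TPM in the trained 0 h libraries and at 30.6, 29.0 and 33.3 TPM at 6 h. The groups did not overlap, nor did they for 34.5% of all tested genes in this direction, and the log2 fold change was -0.42 (SE 0.10, adjusted p = 0.00535). Ppp3cb moved from 66.1 to 70.6 TPM at 0 h to 54.4 to 57.4 TPM at 6 h, again without overlap, with a log2 fold change of -0.30 (SE 0.07, adjusted p = 0.00985). Both passed the adjusted p, as did 25.1% of all tested genes whatever their fold, but missed the fold, and the median gene itself stood at -0.15. Without the shared library the adjusted p were 0.0161 for Ppp3r1 and 0.0381 for Ppp3cb. Ppp3ca gave a log2 fold change of -0.25 (adjusted p = 0.0557, or 0.119 without the shared library). After median-of-ratios scaling, which moves the median gene to 0, Ppp3r1 stood at -0.26 (adjusted p = 0.0201), Ppp3cb at -0.13 (adjusted p = 0.0945) and Ppp3ca at -0.08 (adjusted p = 0.461).

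**Figure D1:**
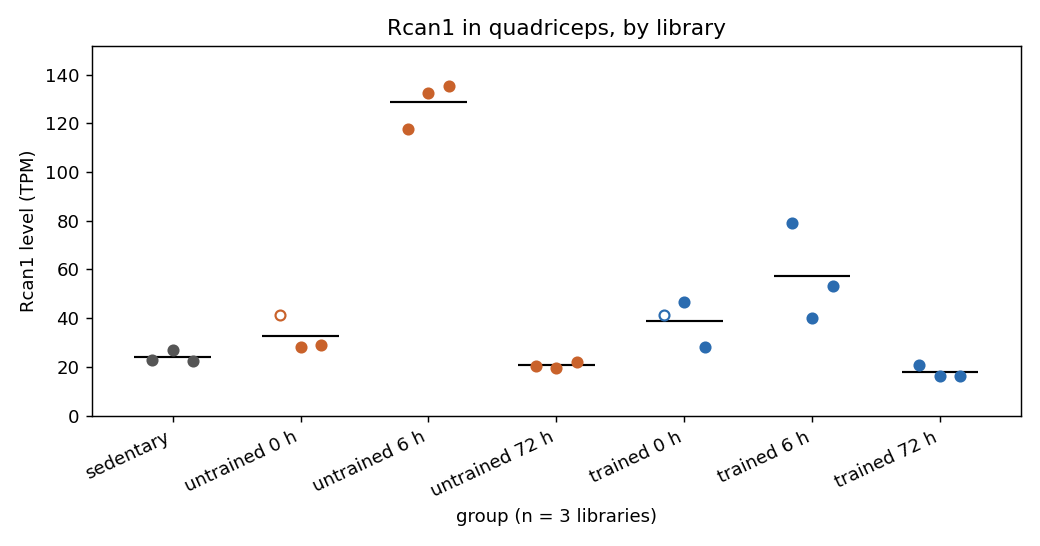
Rcan1 level in TPM in each library (points, 3 per group) with the group mean (line), open points marking the library deposited in both 0 h groups. The 3 untrained 6 h libraries sit between 118 and 136 TPM, above the 3 trained 6 h libraries at 40.2 to 79.1 TPM and above all other libraries.

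Rcan1 was the member that moved most. Sedentary libraries held 23.0, 27.0 and 22.3 TPM, and untrained libraries at 6 h held 118, 133 and 136 TPM. Every untrained 6 h library lay above every sedentary library, as libraries did by any margin for 11.7% of all tested genes. The fold change was 5.26 (log2 fold change 2.40, SE 0.22, adjusted p = 2.61e-06). Of the 10 members, 1 was called in this comparison, in which 4.42% of all tested genes were called. In trained muscle at 6 h Rcan1 stood at 79.1, 40.2 and 53.0 TPM, also above all sedentary libraries (as for 13.9% of all tested genes), with a fold change of 2.28 (log2 fold change 1.19, SE 0.22, adjusted p = 0.00229). It was again the only member called, against 3.85% of all tested genes. This call was lost when the model held only the 6 libraries compared (adjusted p = 0.0766).

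The 6 h rise was the smaller one after training. The trained 6 h libraries did not overlap the untrained 6 h libraries, being lower as they were for 11.5% of all tested genes, and the direct comparison gave a log2 fold change of -1.21 (SE 0.22, adjusted p = 0.00359), a trained level 0.433 times the untrained level. Since both responses are taken against the same sedentary libraries, this is also the difference between them. Rcan1 was the only member called between trained and untrained muscle at 6 h, where 2.01% of all tested genes were called. With only the 6 libraries of these groups in the model the difference kept its size but the adjusted p was 0.197. The trained libraries were less alike than the untrained, with a mean of 57.5 ± 19.9 TPM (SD, n = 3) against 129 ± 9.53 TPM (SD, n = 3).

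At 6 h macrophage markers moved with Rcan1 in part. Of the 6 markers 4 were tested, and 2 of these were called higher in untrained 6 h than in sedentary muscle. The same 2 were called lower at 6 h after training than without it. Cd68, a lysosomal protein of macrophages, stood at 1.04, 1.60 and 1.22 TPM in sedentary, 4.36, 6.82 and 4.01 TPM in untrained 6 h and 1.21 to 1.95 TPM in trained 6 h libraries. Its log2 fold change was 1.62 against sedentary muscle (adjusted p = 6.41e-05) and -1.47 between trained and untrained muscle (adjusted p = 0.000473). Csf1r, the receptor for the macrophage growth factor, gave log2 fold changes of 0.61 (adjusted p = 0.0185) and -0.78 (adjusted p = 0.00712) in the same comparisons. The other two, Lyz2 and C1qa, gave 0.11 and 0.30, then -0.18 and -0.53, and did not pass. The median of the 4 was 0.45 and -0.66, beside 0.01 and -0.04 over all genes. All 6 were above 0 TPM in every library and summed to 31.2 to 34.4 TPM in sedentary, 28.0 to 57.1 TPM in untrained 6 h and 26.8 to 38.6 TPM in trained 6 h libraries, most of it Lyz2. Endothelial markers (5 genes) summed to 44.2 to 54.4, 39.8 to 51.3 and 49.6 to 60.2 TPM, with 0 of 5 called by limma in either comparison, although Kdr passed the adjusted p in the first (log2 fold change -0.54, adjusted p = 0.0475). Of 4 fibro-adipogenic markers 1 was called higher in untrained 6 h and 1 lower in trained 6 h than in sedentary muscle. The untrained 6 h library lowest in the macrophage sum, at 28.0 TPM, held Rcan1 at 118 TPM. At 72 h 1 of the 4 tested macrophage markers was called higher in untrained than in sedentary muscle, beside 0.00846% of all tested genes. Rcan1 was not called there. The part of these cell types in the Rcan1 difference was not tested.

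At 0 h the differences of Rcan1 were small and did not pass. Untrained 0 h libraries held 28.0 and 29.0 TPM, trained 0 h libraries 46.5 and 28.3 TPM, and the shared library 41.1 TPM. All 5 lay above the 3 sedentary libraries, as they did for 17.3% of all tested genes. The log2 fold change against sedentary muscle was 0.42 in untrained muscle (SE 0.22, adjusted p = 0.248) and 0.65 in trained muscle (SE 0.22, adjusted p = 0.0715), or 0.24 (adjusted p = 0.637) and 0.59 (adjusted p = 0.164) without the shared library. With the 5 distinct 0 h libraries taken as 1 group it was 0.49 (SE 0.19, adjusted p = 0.117). In trained muscle the outcome rested on the library at 28.3 TPM: without it Rcan1 passed, and the log2 fold change was 0.85 (adjusted p = 0.0278). In these comparisons limma called 0 of the 10 members in untrained, trained and pooled muscle, with 0, 3 and 1 members at an unadjusted p below 0.05, where 3.59%, 3.74% and 3.89% of all tested genes were called.

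At 72 h Rcan1 stood slightly below the sedentary level without passing. Untrained 72 h libraries held 20.3, 19.6 and 22.1 TPM and trained 72 h libraries 20.6, 16.3 and 16.4 TPM. All 6 values lay below the lowest sedentary library, a pattern seen in 3.16% (untrained) and 13.8% (trained) of all tested genes, but the log2 fold changes of -0.21 (adjusted p = 0.962) and -0.43 (adjusted p = 0.470) did not pass. The 95% intervals of these differences ran from -0.67 to 0.25 in untrained and from -0.89 to 0.03 in trained muscle. Limma called 0 of 10 members at 72 h in untrained muscle and 0 of 10 in trained muscle, with 0 and 1 at an unadjusted p below 0.05, beside 0.00846% and 0.169% of all tested genes.

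Between time points, Rcan1 changed in both training states. In untrained muscle Rcan1 rose between 0 h and 6 h by a log2 fold change of 1.98 (SE 0.22, adjusted p = 2.48e-05), or 2.15 without the shared library (adjusted p = 8.72e-05). It then fell by 2.61 on the log2 scale between 6 h and 72 h (SE 0.22, adjusted p = 1.29e-06). In each of these steps Rcan1 was the only member called, where 4.64% and 4.04% of all tested genes were called. In trained muscle the step from 0 h to 6 h was 0.54 (SE 0.22, adjusted p = 0.0773, or 0.60 and 0.0920 without the shared library), with 0 of 10 members called by limma, 5 at an unadjusted p below 0.05 and 6.46% of all tested genes called. After median-of-ratios scaling this step was 0.71 and passed (adjusted p = 0.0347). From 6 h to 72 h Rcan1 fell by 1.62 on the log2 scale in trained muscle (SE 0.22, adjusted p = 0.000218).

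Ordered by mean level, the groups ran from untrained 6 h (129 TPM) through trained 6 h (57.5 TPM), trained 0 h (38.6 TPM), untrained 0 h (32.7 TPM), sedentary (24.1 TPM) and untrained 72 h (20.7 TPM) to trained 72 h (17.8 TPM). Of the 6 neighbouring pairs in this order, only untrained 6 h and trained 6 h differed past the test. The other pairs had adjusted p of 0.0773 or more.

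**Figure D2:**
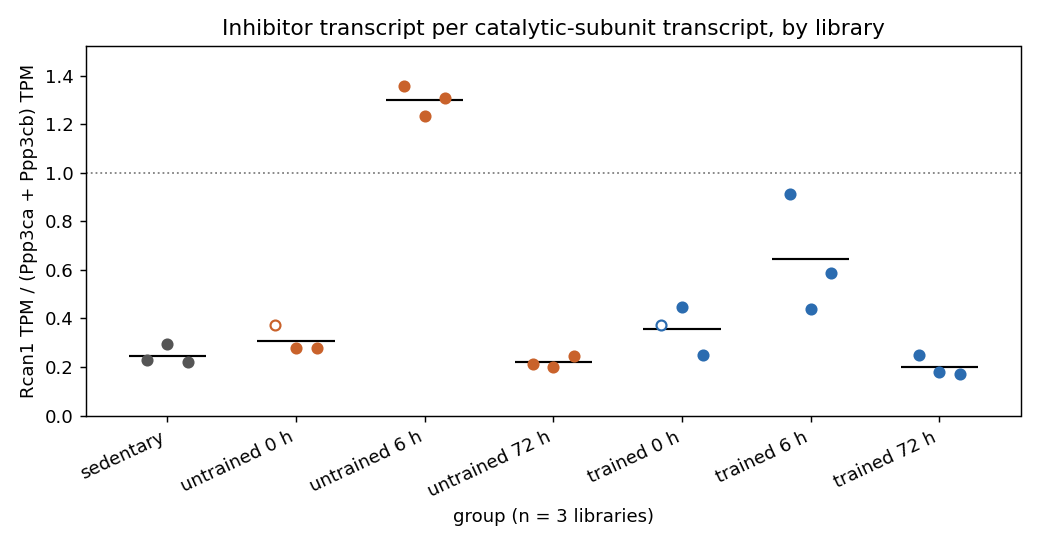
Rcan1 TPM divided by the summed TPM of Ppp3ca and Ppp3cb in each library (points, 3 per group, open points marking the shared 0 h library) with the group mean (line). The dotted line marks a ratio of 1, which the 3 untrained 6 h libraries alone exceed, at 1.23 to 1.36.

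A ratio within a library does not depend on how libraries are scaled. Sedentary libraries held 0.220 to 0.294 Rcan1 transcripts per catalytic-subunit transcript, counting Ppp3ca and Ppp3cb together. At 6 h the ratio was 1.23 to 1.36 in untrained and 0.438 to 0.912 in trained muscle, so the inhibitor transcript outnumbered the catalytic transcripts in untrained muscle alone. At 72 h it was 0.202 to 0.245 in untrained and 0.171 to 0.251 in trained muscle. These ratios are of transcripts and say nothing of protein.

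Rcan2, the second RCAN gene of the list, did not share the course of Rcan1. It ranged from 16.3 to 24.2 TPM over the distinct libraries, and in sedentary muscle it stood near Rcan1, at 19.6, 19.5 and 21.5 TPM. Untrained 6 h libraries held 16.9, 16.3 and 20.6 TPM, the lowest mean of all groups at 17.9 ± 2.37 TPM (SD, n = 3). Against untrained 0 h libraries, at 20.8, 24.2 and 21.3 TPM, Rcan2 was lower in all 3, as were 20.1% of all tested genes, with a log2 fold change of -0.30 (SE 0.08, adjusted p = 0.0269), or -0.34 (adjusted p = 0.0409) without the shared library. That passed the adjusted p, as 11.7% of all tested genes did whatever their fold, but missed the fold. It no longer passed after median-of-ratios scaling (-0.21, adjusted p = 0.137). Against sedentary muscle Rcan2 passed in 0 of 6 tests by limma, 0 of them with an unadjusted p below 0.05. Rcan1 transcripts per Rcan2 transcript rose from 1.04 to 1.38 in sedentary libraries to 6.57 to 8.15 in untrained and 2.02 to 3.57 in trained libraries at 6 h.

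**Figure D3:**
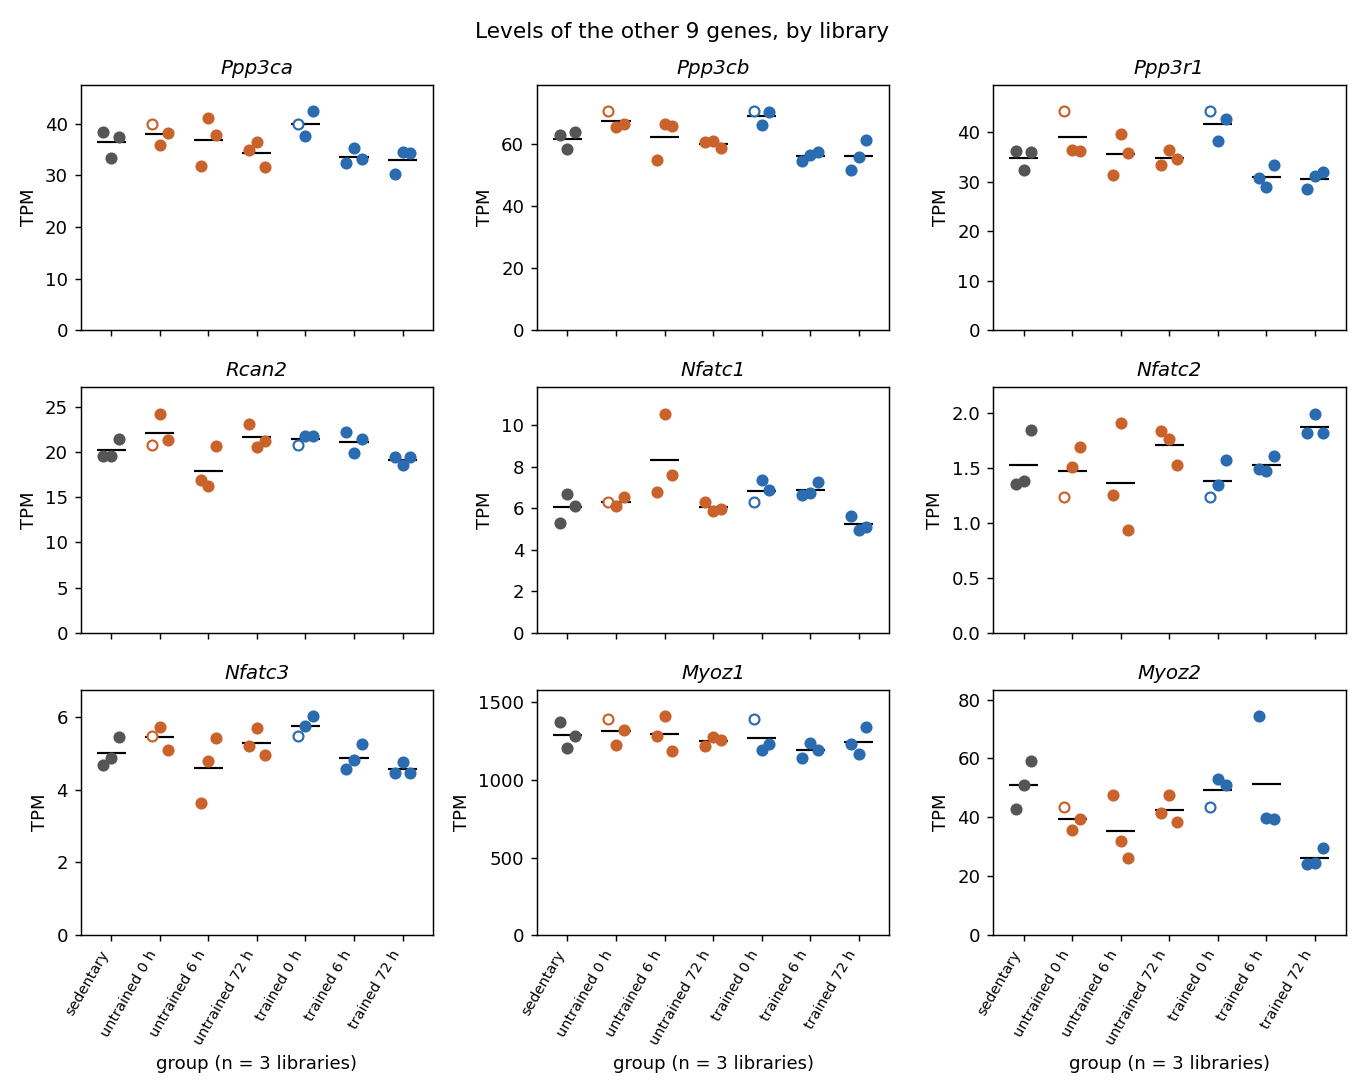
Levels in TPM of the 9 genes other than Rcan1 in each library (points, 3 per group) with the group mean (line), open points marking the library deposited in both 0 h groups. Each axis starts at 0. Myoz2 is lowest in the trained 72 h libraries, at 24.0 to 29.5 TPM, and Nfatc1 is highest in an untrained 6 h library, at 10.6 TPM.

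Among the NFAT genes, Nfatc1 was slightly higher at 6 h in untrained muscle. Sedentary libraries held 5.30, 6.69 and 6.13 TPM and untrained 6 h libraries 6.76, 10.6 and 7.62 TPM. The groups did not overlap, as was so for 11.7% of all tested genes in this direction, and the margin was narrow. The log2 fold change was 0.41 (SE 0.12, adjusted p = 0.0360), which passed the adjusted p, as 9.47% of all tested genes did, but not the fold. By 72 h untrained libraries were back at 6.32, 5.87 and 5.97 TPM, a fall from 6 h of 0.40 on the log2 scale (SE 0.12, adjusted p = 0.0408), where 9.04% of all tested genes passed the adjusted p. With the shared 0 h library left out of the model, which changes the shared estimate of the spread, this fall did not pass (adjusted p = 0.0544). Both steps rested in part on the library at 10.6 TPM: leaving out 1 library at a time, the log2 fold change against sedentary muscle ran from 0.24 (adjusted p = 0.149) to 0.54, and the fall from 6 h to 72 h from -0.53 to -0.23 (adjusted p = 0.144). In the alternative limma fits that dropped no single library for its own sake, the adjusted p reached 0.365 against sedentary muscle and 0.287 for the fall. In trained muscle at 6 h Nfatc1 stood at 6.63, 6.73 and 7.28 TPM, a log2 fold change of 0.18 against sedentary muscle (adjusted p = 0.378) and of -0.23 against untrained muscle (95% interval from -0.48 to 0.02, adjusted p = 0.306).

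Nfatc3 and Nfatc2 passed by limma in 0 of 26 tests, and Nfatc3 had an unadjusted p below 0.05 in 2 of them, from 0 h to 6 h in untrained and in trained muscle. Without the shared library these 2 steps gave log2 fold changes of -0.23 (adjusted p = 0.299) and -0.25 (adjusted p = 0.165). Nfatc3 ranged from 3.63 to 6.03 TPM. Nfatc2, the NFAT gene best known from lymphocytes, was the lowest of the 10 members at 0.939 to 2.00 TPM, in libraries in which lymphocyte markers were near 0. Its precision is limited by this level, and a filter at a mean of 5 TPM removed it.

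The calsarcins differed widely in level. Myoz1, the fast-fibre calsarcin, was the highest of the 10 members and the steadiest over the distinct libraries, at 1144 to 1413 TPM, and it passed by limma in 0 of 13 tests (0 at an unadjusted p below 0.05). Myoz2 ranged from 24.0 to 74.4 TPM, or 1.94% to 6.51% of Myoz1 in the same library, and its mean was lowest in trained muscle at 72 h. There the libraries held 24.0, 24.5 and 29.5 TPM, against 74.4, 39.8 and 39.6 TPM at 6 h. The groups did not overlap, as was so for 19.7% of all tested genes in this direction, and Myoz2 fell by 0.91 on the log2 scale (SE 0.23, adjusted p = 0.0192). With Rcan1 it made 2 of 10 members called between trained 6 h and trained 72 h, where 3.48% of all tested genes were called. Without the library at 74.4 TPM the fall was 0.61 on the log2 scale and did not pass (log2 fold change -0.61, adjusted p = 0.0900), nor did it without the first (adjusted p = 0.0712) or the second (adjusted p = 0.0688) trained 72 h library.

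Trained 72 h muscle also held less Myoz2 than muscle of the other groups it was set against, without passing. Sedentary libraries held 43.0, 51.1 and 59.2 TPM and untrained 72 h libraries 41.6, 47.5 and 38.5 TPM, all above the trained 72 h libraries, as they were for 13.8% and 24.6% of all tested genes. The log2 fold changes were -0.95 against sedentary (95% interval from -1.44 to -0.47, adjusted p = 0.0855) and -0.70 against untrained 72 h muscle (95% interval from -1.18 to -0.22, adjusted p = 0.178). In the latter comparison limma called 0 of 10 members, with 1 at an unadjusted p below 0.05, beside 0.245% of all tested genes. In untrained muscle at 6 h Myoz2 stood at 47.7, 31.9 and 26.1 TPM, a log2 fold change of -0.56 against sedentary muscle (adjusted p = 0.151), which passed without the library at 47.7 TPM (-0.80, adjusted p = 0.0292).

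**Figure D4:**
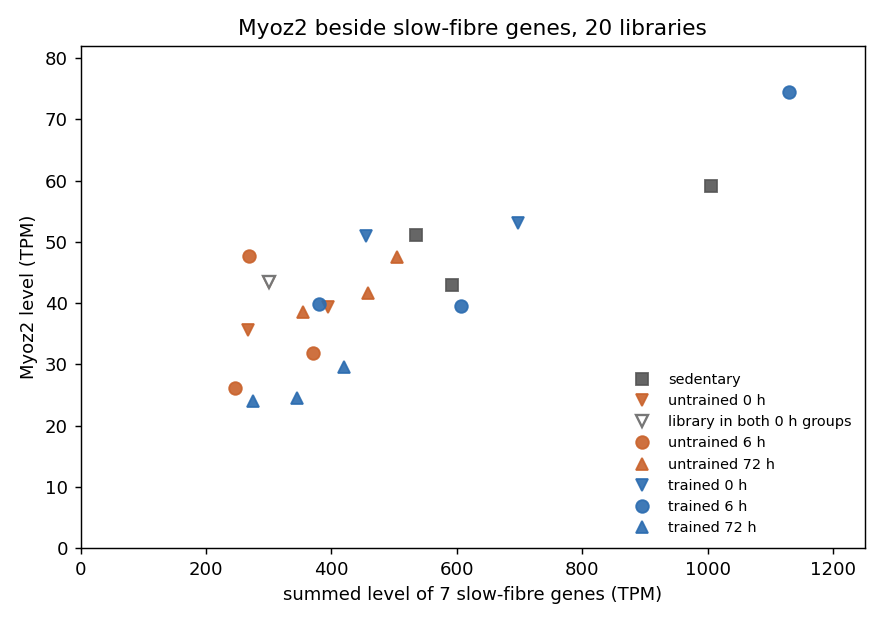
Myoz2 level against the summed level of 7 slow-fibre genes, both in TPM, in the 20 distinct libraries, coloured by training state and marked by time. The trained 6 h library with the highest Myoz2, at 74.4 TPM, also has the highest slow-fibre sum, at 1130 TPM.

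Between trained 6 h and 72 h muscle 1 slow-fibre and 1 fast-fibre gene were called lower along with Myoz2. The 7 slow-fibre genes (Myh7, Tnnt1, Tnni1, Tnnc1, Myl2, Myl3 and Atp2a2) summed to 535 to 1005 TPM in sedentary, 380 to 1130 TPM in trained 6 h and 275 to 421 TPM in trained 72 h libraries. The trained 6 h library highest in Myoz2 had the highest sum. Between trained 6 h and 72 h muscle 1 of the 7, Myl2, was called and lower (log2 fold change -1.32, adjusted p = 0.0410, or 0.0521 without the shared library), and their median log2 fold change was -0.84 beside -0.03 over all genes. In untrained muscle at 6 h, where the sum was 246 to 371 TPM, 2 of the 7 were called lower than in sedentary muscle, Myl3 (log2 fold change -1.32, adjusted p = 0.00606) and Myl2 (-1.28, adjusted p = 0.0468, or 0.0592 without the shared library), whereas Myoz2 did not pass there. In trained 72 h muscle limma called 0 of the 7 against sedentary and 0 against untrained 72 h muscle, with medians of -0.89 and -0.28. In untrained 0 h muscle, with the shared library, 1 of the 7 was called lower than in sedentary muscle (median -1.09). Myoz2 gave -0.36 there (adjusted p = 0.355), or -0.43 without that library (adjusted p = 0.436). Between trained and untrained muscle at 6 h 1 of the 7 was called higher (median 1.26), and Myoz2 gave 0.51 (adjusted p = 0.240). Of 8 fast-fibre genes, which summed to 55323 to 85685 TPM, 1 was called between trained 6 h and 72 h muscle. This was Myh2, the myosin of fast oxidative fibres, at 304, 185 and 178 TPM at 6 h and 99.0, 141 and 109 TPM at 72 h (log2 fold change -0.90, adjusted p = 0.0326), and the median of the 8 was -0.01. The part of fibre make-up in the Myoz2 differences was not tested. Over the 20 distinct libraries, the 5 genes of at least 5 TPM whose log2 level was most like that of Myoz2 were Myh2 (Pearson r = 0.847), Fabp3 (0.832), Myl3 (0.799), Myl2 (0.780) and Casq2 (0.775), out of 6121 genes.

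**Figure D5:**
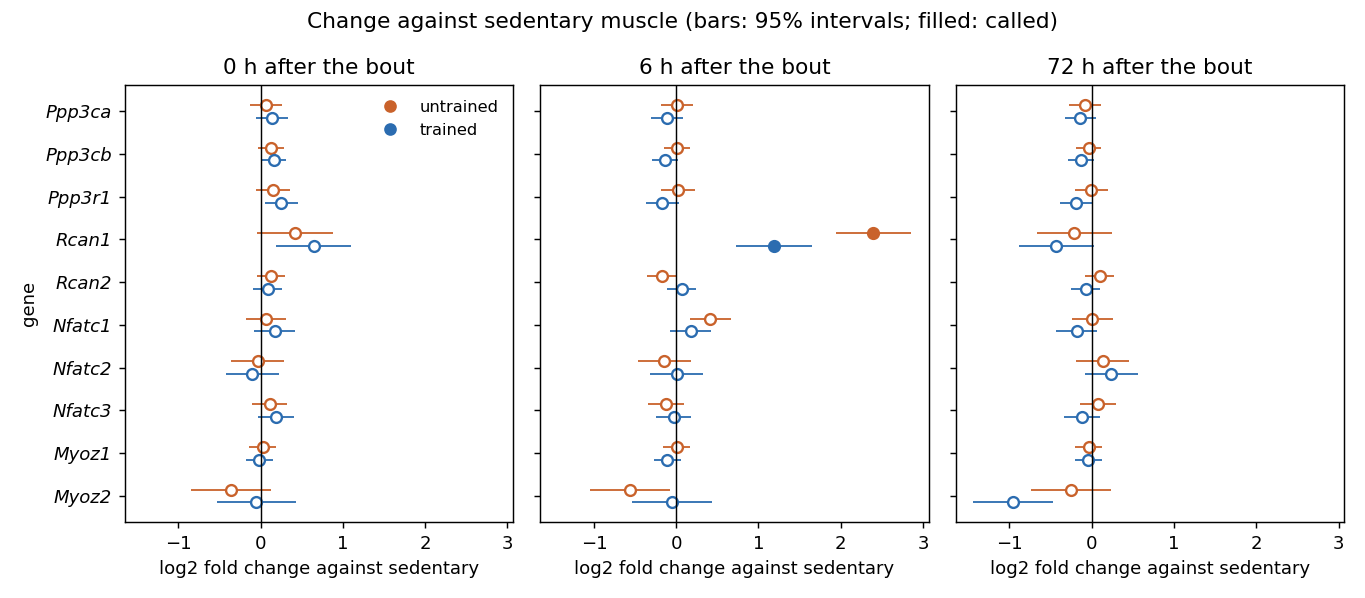
Log2 fold change of the 10 members against sedentary muscle in untrained (orange) and trained (blue) muscle, with a panel for each time after the bout, 95% intervals from limma and filled points for called genes. Rcan1 at 6 h gives the only filled points, at 2.40 and 1.19.

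Across the 6 comparisons with sedentary muscle, the 8 members other than Rcan1 and Myoz2 gave 48 log2 fold changes between -0.19 and 0.41, of which 1, that of Nfatc1, passed the adjusted p. Their 95% intervals lay within -0.47 and 0.66. Rcan1 and Myoz2 were the members that moved most in these same data, so leaving them out narrows the range by choice. With Myoz2 kept, the values ran from -0.95 to 0.41 and the intervals lay within -1.44 and 0.66, although Myoz2 was not called against sedentary muscle. The 6 comparisons share the sedentary libraries. Between trained and untrained muscle at 0 h, without the shared library, limma called 0 of the 10 members, 0 had an unadjusted p below 0.05 and 0% of all tested genes were called. There Rcan1 differed by a log2 fold change of 0.34 (95% interval from -0.21 to 0.89) and Myoz2 by 0.47 (95% interval from -0.16 to 1.09).

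Of 35 further genes of the pathway, 31 were tested. They included other calcineurin and NFAT genes, calmodulins, channels of store-operated calcium entry, kinases that return NFAT to the cytoplasm, and Z-disc partners of the calsarcins. At 6 h in untrained muscle 2 were called and higher than in sedentary muscle, both of the Z-disc, beside 4.42% of all tested genes. Flnc, the actin cross-linker filamin C to which calsarcins bind, stood at 42.7, 40.4 and 43.1 TPM in sedentary and 232, 302 and 262 TPM in untrained 6 h libraries (log2 fold change 2.64, SE 0.19, adjusted p = 2.79e-07). Csrp3, the muscle LIM protein of the Z-disc, rose by 2.95 on the log2 scale (SE 0.50, adjusted p = 0.00112). At 6 h both stood lower after training, Flnc by a log2 fold change of -1.65 (adjusted p = 0.000125) and Csrp3 by a log2 fold change of -2.65 (adjusted p = 0.00543), and they were the only 2 of the 31 called there, beside 2.01% of all tested genes. With only these 6 libraries in the model neither passed (adjusted p = 0.140 and 0.269), at the same fold changes. Of the 3 trained 6 h libraries, the one highest in Rcan1, at 79.1 TPM, was also the highest in Flnc and Csrp3, at 122 and 196 TPM. Flnc was among the 5 genes most like Rcan1 over the 20 distinct libraries (Pearson r = 0.949), after Xirp1 (0.967), Mknk2 (0.956), Rgcc (0.954) and Tnfrsf12a (0.952).

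Calm2 and a calcineurin anchor were called lower in trained 6 h than in sedentary muscle. Calm2, which encodes calmodulin, stood at 126, 132 and 162 TPM in sedentary and 55.0, 59.9 and 67.3 TPM in trained 6 h libraries, without overlap, as for 15% of all tested genes in this direction (log2 fold change -1.19, SE 0.21, adjusted p = 0.00162). Calm3, another calmodulin gene, stood at 140 to 156 TPM in sedentary and 98.1 to 135 TPM in trained 6 h libraries and did not pass by limma. Akap6, an anchoring protein that binds calcineurin, was lower in trained 6 h than in sedentary muscle by a log2 fold change of -0.70 (adjusted p = 0.000455). In untrained 6 h muscle Akap6 was also lower, by a log2 fold change of -0.54 that passed the adjusted p (0.00236) but not the fold, and Calm2 gave -0.48 (adjusted p = 0.185). Between trained and untrained muscle at 6 h neither passed (log2 fold change -0.16 and adjusted p = 0.419 for Akap6, -0.72 and 0.0604 for Calm2). Calm2 and Akap6, with Flnc, which was higher by a log2 fold change of 0.98 (adjusted p = 0.00421, a call lost in a model of the 6 libraries compared), made 3 of the 31 called in trained muscle at 6 h, 1 higher and 2 lower, beside 3.85% of all tested genes, with a median log2 fold change of -0.08 beside -0.01 over all genes.

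At 0 h against sedentary muscle limma called 0 of the 31 further genes in untrained and in trained muscle, with 9 and 8 at an unadjusted p below 0.05, and 0 in each without the shared library. At 72 h it called 0 in each, with 1 and 7 at an unadjusted p below 0.05, beside 0.00846% and 0.169% of all tested genes called. Between trained and untrained muscle at 72 h 1 of the 31 was called, beside 0.245% of all tested genes. It was Csrp3, at 15.3, 9.4 and 15.1 TPM in trained and 99.1, 119 and 87.4 TPM in untrained libraries (log2 fold change -2.91, adjusted p = 0.0171). This call was lost on leaving out any of 5 of the 6 libraries, all but the first trained one, with an adjusted p of 0.0507 to 0.119 and a log2 fold change of -3.02 to -2.69.

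Between time points, Flnc and Csrp3 gave the widest steps of the further genes. From 0 h to 6 h in untrained muscle 2 rose and 2 fell, beside 4.64% of all tested genes called, or 2 and 0 without the shared library. Flnc rose by 2.36 on the log2 scale (adjusted p = 1.3e-06), or 2.23 without the shared library, and Csrp3 by 3.11 (adjusted p = 0.000651), or 2.80. Calm2 gave a log2 fold change of -0.70 (adjusted p = 0.0369), but -0.55 without the shared library (adjusted p = 0.164), and the call was lost on leaving out any of 5 of the 6 libraries, all but the second untrained 0 h one. From 6 h to 72 h in untrained muscle 0 rose and 2 fell, beside 4.04% of all tested genes called, Flnc by a log2 fold change of -2.48 (adjusted p = 7.69e-07) and Csrp3 by -2.21 (adjusted p = 0.00983).

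In trained muscle 1 rose and 3 fell from 0 h to 6 h, beside 6.46% of all tested genes called, or 0 and 3 without the shared library. Calm2 fell by 1.53 on the log2 scale (adjusted p = 0.000112), and its log2 fold change was -1.43 without the shared library. Flnc gave a log2 fold change of 0.65 (adjusted p = 0.0243), a call lost without the shared library (0.49, adjusted p = 0.101), the third trained 0 h library (0.66, adjusted p = 0.0501) or the first trained 6 h library (0.38, adjusted p = 0.114). Akap6 gave -0.59 (adjusted p = 0.000754), or -0.67 without the shared library. It missed the fold after each of the 3 other scalings (-0.45 in each), with a pseudocount of 1, and without the second or the third trained 0 h library or the third trained 6 h library, where it ran from -0.56 to -0.53. From 6 h to 72 h 3 rose and 3 fell in trained muscle, beside 3.48% of all tested genes called. Flnc fell by 1.29 on the log2 scale (adjusted p = 0.000506) and Csrp3 by 2.47 (adjusted p = 0.00473, or 0.131 in a model of the 6 libraries compared). Calm2 gave 0.78 (adjusted p = 0.0249), a call lost without the first or the second trained 6 h library or the second or the third trained 72 h library (adjusted p of 0.0628 to 0.118).

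The other calls were of kinases and Z-disc genes. Dyrk2, a kinase that phosphorylates NFAT, fell in untrained muscle from 0 h to 6 h (log2 fold change -0.63, adjusted p = 0.0364), but not on leaving out the shared library (-0.57, adjusted p = 0.123), the second untrained 0 h library (-0.54, adjusted p = 0.110) or the first (-0.41, adjusted p = 0.158) or second (-0.66, adjusted p = 0.0565) untrained 6 h library. Dyrk1b, a kinase of the same family, rose in trained muscle from 6 h to 72 h (log2 fold change 0.66, SE 0.08, adjusted p = 0.000157) and passed without each library in turn. Tcap, the Z-disc protein telethonin, fell in trained muscle from 0 h to 6 h (log2 fold change -0.68, adjusted p = 0.00808), or by a log2 fold change of -0.72 without the shared library (adjusted p = 0.0236), but did not pass after median-of-ratios scaling (-0.51, adjusted p = 0.0648). It rose from 6 h to 72 h (log2 fold change 0.63, adjusted p = 0.0227), and that call was lost without the first or the third trained 6 h library, or without the second or the third trained 72 h library, with an adjusted p of 0.0569 to 0.102. Actn2, the alpha-actinin of the Z-disc, fell from 6 h to 72 h in trained muscle (log2 fold change -0.68, adjusted p = 0.0133), and that call was lost without the first trained 6 h library (-0.51, adjusted p = 0.0705) or the second (-0.65, adjusted p = 0.0516) or the third (-0.64, adjusted p = 0.0530) trained 72 h library.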

How the data were processed

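Per the labels, RNA of crushed quadriceps was sequenced from TruSeq libraries. The authors aligned reads with STAR 2.7.9 to GRCm39, quantified them with Salmon 1.5.0 and deposited a TPM value for each gene symbol and library. TPM carry no depth, so no counting error can be given. Columns were matched to samples by library name, and 0 columns stayed unmatched. Testing was limited to genes averaging 1 TPM or more over the 21 libraries, on log2(TPM + 0.5) with limma 3.58.1 in R 4.3.3, as 1 model of all 7 groups with a variance trend and 14 residual degrees of freedom. That number counts the library found in both 0 h groups once in each, and the fit without it had 12. P-values were adjusted over all 11819 genes (Benjamini-Hochberg). There were 14 comparisons: exercised with sedentary groups, trained with untrained, successive times, and pooled 0 h libraries with sedentary. The code was tested on simulated data.

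The members and gene lists were chosen with earlier results of these data known. All 10 members are named. Of the planned list of further pathway genes, 1 is not reported here. Of the further pathway genes, those called in at least 1 comparison are named, as are the 5 genes most like Rcan1 and Myoz2. Alternatives were pseudocounts of 0.1 and 1, other filters, 3 scalings, 3 variance models, only the groups compared, a replicate block and leaving out each library. Gene positions came from GENCODE, promoters from RefSeq (table built on GRCm38.p6, relocated in GRCm39 by exact match). No sequence of Nfatc1 is shown. Plots were made in Python 3.11.15 (matplotlib 3.10.9).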

Additional observations from a re-analysis of the deposited data

Results flagged for a closer look

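The change of Rcan1 against sedentary muscle differed between trained and untrained muscle at 6 h, by a log2 fold change of -1.21. That call was lost in a model of only the 6 libraries compared. Rcan1 also differed between times, by 1.98 from 0 h to 6 h and -2.61 from 6 h to 72 h in untrained muscle and by -1.62 from 6 h to 72 h in trained muscle. Myoz2 differed by -0.91 from 6 h to 72 h in trained muscle, a call lost in 5 of the recomputed fits. All of these differences were tested directly with limma.

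Among the further pathway genes, trained and untrained muscle differed in Flnc (-1.65) and Csrp3 (-2.65) at 6 h and in Csrp3 (-2.91) at 72 h, on the log2 scale. The 6 h calls were lost in a model of only the libraries compared, and the 72 h call in 5 of the recomputed fits. From 0 h to 6 h in untrained muscle the log2 fold changes were 2.36 for Flnc, 3.11 for Csrp3, -0.70 for Calm2 and -0.63 for Dyrk2, and without the shared 0 h library those of Calm2 (-0.55, adjusted p = 0.164 with limma) and Dyrk2 (-0.57, adjusted p = 0.123) did not pass. From 6 h to 72 h in untrained muscle they were -2.48 for Flnc and -2.21 for Csrp3. From 0 h to 6 h in trained muscle they were 0.65 for Flnc, -0.59 for Akap6, -1.53 for Calm2 and -0.68 for Tcap. That of Flnc was 0.38 (adjusted p = 0.114 with limma) without the first trained 6 h library, and that of Akap6 missed the fold threshold after 3 other scalings. The fall of Tcap lost its call in 2 of the recomputed fits. From 6 h to 72 h in trained muscle the log2 fold changes were 0.78 for Calm2, 0.66 for Dyrk1b, 0.63 for Tcap, -0.68 for Actn2, -1.29 for Flnc and -2.47 for Csrp3. In this step the calls of Calm2, Tcap, Actn2 and Csrp3 were each lost in at least 1 recomputed fit.

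Rcan2 had a library that stood apart among the 5 distinct 0 h libraries: an untrained 0 h library held 24.2 TPM, and its gap to the next library was 0.715 of the range, above the critical value of 0.71 for 5 libraries. Chance flags about 1 in 20 such groups, and 10 genes were looked at. Groups of 3 were not examined in this way.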

How the results depend on the processing

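Of 270 recomputed counts of members called, 250 stayed within 1.5 times the count reported. Trained 6 h against trained 0 h had 1 member called after median-of-ratios scaling, after quantile normalization and after TPM were rescaled without mitochondrial-genome genes and the highest 10 genes, each time Rcan1. When the model held just the libraries of the pair compared, 0 members were called for trained 6 h against sedentary and against untrained 6 h, and 1 for trained 72 h against trained 6 h, where no filter on low values also left 1. Sample quality weights gave 1 member, Myoz2, for trained 72 h against sedentary and against untrained 72 h. Without the fold threshold 2 members were called for untrained 6 h against sedentary and against untrained 0 h, for untrained 72 h against untrained 6 h and for trained 6 h against trained 0 h. Leaving out 1 library at a time, counts ran from 1 to 2 for untrained 6 h against sedentary, 0 to 1 for trained 0 h against sedentary, 0 to 1 for trained 6 h against trained 0 h and 1 to 2 for trained 72 h against trained 6 h. Rcan1 changed sign between trained and untrained muscle at 0 h without the second trained 0 h library (log2 fold change -0.0124, up to 0.6968 without the third). Of 549 recomputed log2 fold changes of members 532 kept their direction and their call, and of 438 of the further pathway genes 378 did, the others being lost calls. With the replicate number as a block, 0 counts changed, and 1 member stayed called for untrained 6 h against sedentary, while of the further genes Dyrk2 no longer passed (adjusted p = 0.0525). Deviations from the group means were little correlated between libraries of the same number (62 pairs, median r = 0.018, 4 above 0.1). Between libraries of different number the median r was -0.005 (126 pairs, 4 above 0.1). The labels do not say that the numbers pair the samples, and such correlations cannot exclude it. TPM carry no depth, which limits the precision given for low genes such as Nfatc2.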
